A study of Mus musculus with 4 samples.

Results

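Involucrin (Ivl), periplakin (Ppl), sciellin (Scel) and envoplakin (Evpl) encode proteins of the early cornified envelope scaffold, and their transcripts were compared between loricrin knockout and wildtype newborn mouse skin. These 4 genes, out of 13674 genes named on the arrays, were taken by exact gene symbol in the platform annotation, without use of their signals. Each was represented by 1 probe set, the group of short probes whose readings an Affymetrix array combines into 1 signal. Ivl (92739_at), Ppl (102223_at) and Scel (161132_at) lay on the first of 2 array types and Evpl (163295_at) on the second, and 0 of the 4 genes were on both.

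The samples were whole skin of FVB/N mice at postnatal day 0. Both groups share the strain, age and tissue and differ in the labelled genotype, loricrin knockout or wildtype. There were 4 arrays, 2 per genotype, with 1 array per genotype on each type. The labels do not give the deleted sequence, the number or sex of the animals, or whether the RNA was pooled, and nothing says that the second array of a genotype held RNA of another animal. Every ratio below therefore comes from 1 knockout and 1 wildtype array, has no replicate error and no p-value, and the number of arrays limits its precision.

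The cornified envelope is the cross-linked protein shell that replaces the plasma membrane of keratinocytes as they become the dead cells of the skin surface. Its assembly begins on the inner face of the membrane, where envoplakin and periplakin, rod-shaped linker proteins of the plakin family that can pair with each other, and involucrin, a glutamine-rich protein, are joined by transglutaminases. Loricrin, the most abundant envelope protein, and small proline-rich proteins are added to this scaffold later. Sciellin is a further precursor with repeated motifs and a LIM domain that transglutaminases can cross-link.

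None of the 4 genes reached a 2-fold difference between the genotypes. Of the 3 genes on the first array type, Ivl stood furthest from an equal signal, 1.88-fold lower in the knockout. Ppl and Scel were 1.19-fold and 1.25-fold lower on the same pair of arrays, and Evpl was 1.22-fold higher on the other pair. These values hold the average signal of a pair equal. With bacterial spike-ins held equal instead, the log2 ratios were -0.22 for Ivl, 0.44 for Ppl, 0.37 for Scel and 0.94 for Evpl. The median measured probe set then stood at 0.66 (first type) and 0.60 (second type). Ppl and Scel thus turned above 0 but stayed below the median of their type, while Evpl lay above its own. Of the 3 first-type genes, Ivl was then nearest to an equal signal, though still the lowest. Evpl, on a pair scaled separately, is not ranked against them. All 8 signals lay far above the floor, the signal below which readings were treated as not measured, which was 77.6 for the first type and 133 for the second. The smallest of them, Scel in the knockout, was 24.8 times the floor, so no member's ratio is a bound.

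The genotype labels were checked on loricrin (Lor in the annotation). On the first type its knockout signal of 2013 was 20.5-fold lower than its wildtype signal of 41224, and where its probes lie relative to the deleted sequence is not given in the sources used here. Its other probe set was below the floor on both arrays, and the second type holds no probe set named for it, so the pair of arrays that carries Evpl was not checked this way. Sex-linked transcripts also differed with the genotype on both types. The Y-linked Eif2s3y had a knockout signal of 42.7 against a wildtype signal of 1071 on the first type, and Kdm5d had 12.2 against 976 on the second. Sex and genotype cannot be told apart in any value below.

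Involucrin is a marker of keratinocytes that have left the basal layer and an early substrate of transglutaminase. Its MAS5 signal, a background-corrected intensity on a linear scale, was 2153 on the knockout array and 4040 on the wildtype array. This is a log2 ratio, knockout over wildtype, of -0.91. Of the 7904 probe sets measured on the first type, meaning above the floor on at least 1 array, 195 (2.47%) had a ratio as low or lower. Ratios scatter more at low signal, so Ivl was also placed among the 1815 probe sets that read at least 1000 on both arrays. There 8 of them, Ivl included (0.441%), were as low or lower, and the 5th and 95th percentiles were -0.55 and 0.45. This rank describes a single pair of arrays and is no test. By the 2-fold rule 0 of the 3 members on this type were counted, beside 1.91% of measured probe sets called lower and 1.37% called higher. By a 1.5-fold rule 1 of the 3, Ivl, was counted as lower, beside 7.38% of measured probe sets called lower and 6.45% called higher.

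Periplakin links the envelope to keratin filaments and the cell membrane. The Ppl signal was 9880 on the knockout array and 11736 on the wildtype array, a log2 ratio of -0.25. On the first type 25.1% of measured probe sets and 23.4% of those of at least 1000 on both arrays had a ratio as low or lower. The Ppl ratio thus lay inside the bulk of the array.

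Sciellin, the third member on that type, gave 1926 on the knockout and 2399 on the wildtype array, a log2 ratio of -0.32. Ratios as low or lower were found for 20.1% of measured probe sets and 17.7% of those of at least 1000. Scel and Ppl differed from each other by 0.07 in log2 ratio, the smallest gap among the 3.

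Envoplakin, the partner of periplakin, is measured on the second type, where the knockout array gave 11521 and the wildtype array 9435, a log2 ratio of 0.29. On that type 24.3% of the 8142 measured probe sets, and 17.4% of the 1767 that read at least 1000 on both arrays, were as high or higher. The 2-fold rule did not count Evpl, beside 2.26% of measured probe sets called higher and 2.80% called lower there. Nor did a 1.5-fold rule, beside 9.27% called higher and 10.6% called lower. Evpl and Ppl were read on different pairs of arrays that were scaled separately, so their opposite signs are given side by side and not compared.

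**Figure D1:**
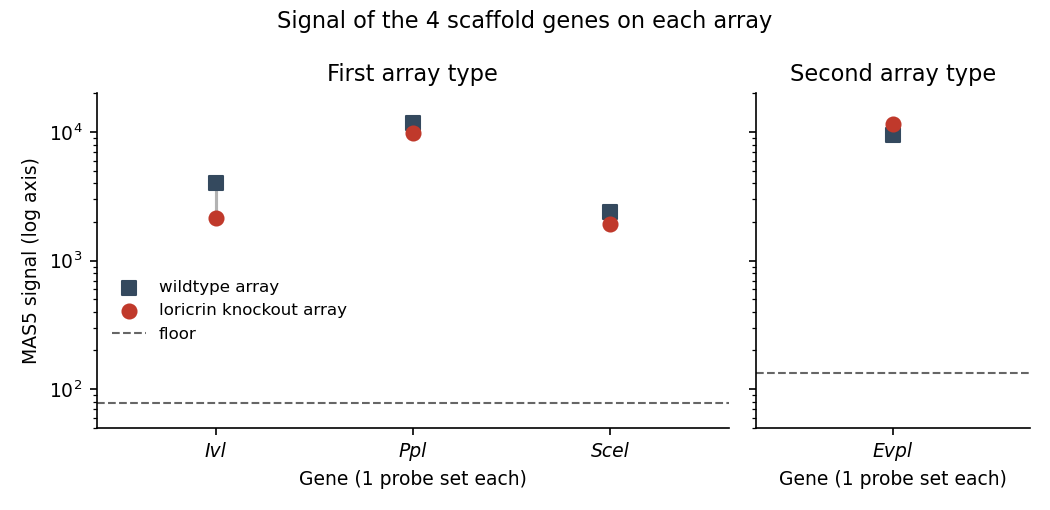
MAS5 signal (log axis) of each scaffold gene's probe set on the loricrin knockout array (red circles) and the wildtype array (dark squares), 1 array per genotype and array type, with the floor dashed. The largest gap is that of Ivl, 2153 against 4040, and all 8 points lie well above the floor.

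**Figure D2:**
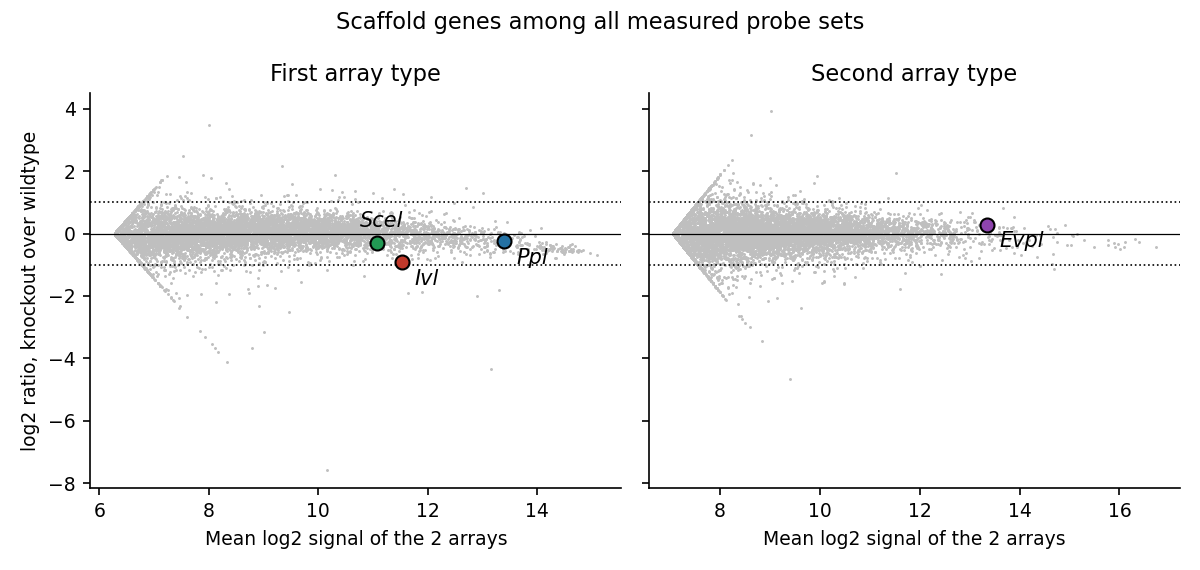
Log2 ratio of knockout over wildtype against the mean log2 signal of the 2 arrays for every measured probe set (grey, 7904 for the first type and 8142 for the second), with the scaffold genes in colour and 2-fold differences dotted. Ivl, at -0.91, lies at the lower edge of the cloud for its signal, and Ppl, Scel and Evpl lie inside it.

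Differences between genes on the same pair of arrays do not move when a whole array is multiplied by a factor. The log2 ratio of Ivl was 0.66 below that of Ppl and 0.59 below that of Scel, which corresponds to a knockout signal 1.58-fold and 1.51-fold lower relative to those genes. The gap to Ppl was 0.89 under quantile normalization and 0.93 under loess, a smooth correction of the ratio along the signal, and the gap to Scel was 0.54 and 0.55. Involucrin was therefore the lowest of the 3 under every scaling computed, each on the same pair of arrays.

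How far a single ratio can be trusted was gauged on other genes, because no member was measured on both types. For 108 genes that read at least 1000 on both arrays of both types, the log2 ratio on one type differed from that on the other with an SD of 0.33 and a median size of 0.23, and 73 of 108 had the same sign on both. In 0 of the 108 did the ratios differ by as much as the Ivl ratio itself. Among all 995 genes above the floor throughout, the SD was 0.51, and 76 (7.64%) differed by that much. If the types contribute equally, the SD of 1 ratio of a bright probe set is 0.24. In that unit the sizes of the members' ratios are 1.05 for Ppl, 1.22 for Evpl, 1.34 for Scel and 3.84 for Ivl, given as a description and not as a test. These differences include those between probe sets, and they measure spread between animals only if the arrays came from separate animals.

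The sign of the Ppl and Scel ratios depends on what is held equal between the arrays. Holding 9 bacterial spike-in probe sets equal raises every ratio above the floor by 0.69 on the first type and by 0.65 on the second. That scaling, under which Ppl and Scel turn above 0, moves the median of all measured probe sets to 0.66 for the first type and 0.60 for the second, so the order of the members of a type among its probe sets is kept. Loess took Ppl to 0.03 and quantile normalization to 0, while Ivl stayed at -0.90 and -0.89. An additional scaling, chosen after the values were seen, set the median ratio of the suprabasal keratinocyte markers of each type to 0. The ratios were then -0.42 for Ivl, 0.24 for Ppl, 0.17 for Scel and 0.58 for Evpl. Ivl was below 0 and Evpl above 0 under all 10 alternatives, whereas Ppl was below 0 in 6 and Scel in 8. Part of the 10 could not change a sign, because the members lie far above the floor. The other floors left their ratios unchanged, and the pseudocounts and the deposited scaling moved them little.

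**Figure D3:**
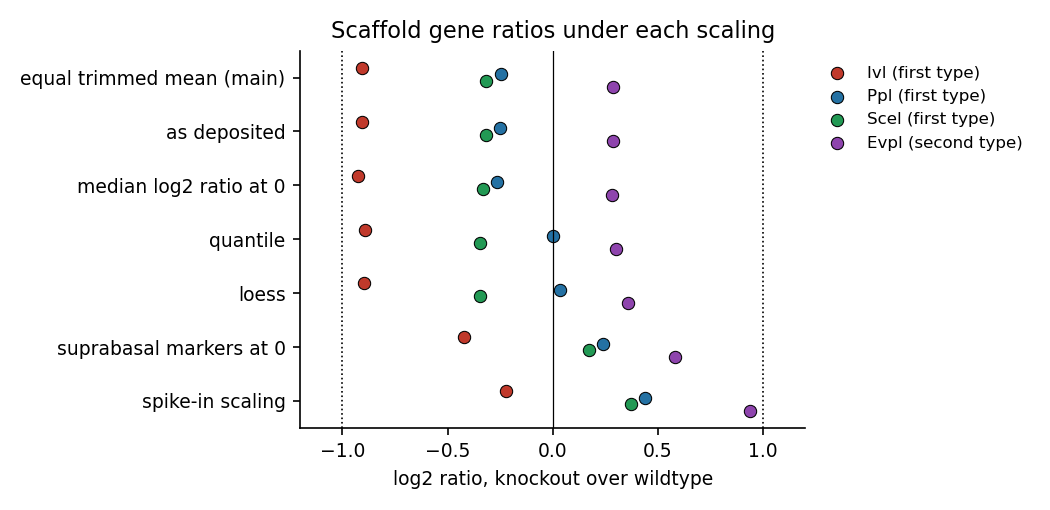
Log2 ratio of knockout over wildtype of each scaffold gene under 7 scalings, with 2-fold differences dotted. Ivl is the leftmost point and lies below 0 in every line, and Evpl lies above 0 in every line. Ppl and Scel lie above 0 when suprabasal markers or spike-ins are held equal. Ppl also lies at 0 under quantile normalization and at 0.03 under loess.

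The other plakins, relatives that tie filaments to junctions, did not pass 2-fold either, except Dst with spike-ins held equal. On the first type 3 were measured, with a median log2 ratio of 0.16 (0.85 with spike-ins held equal), beside 0.01 over all measured probe sets. Desmoplakin (Dsp), which anchors keratin to desmosomes, read 11157 and 14388, a ratio of -0.37 that was 0.32 with spike-ins held equal. Plectin (Plec), a filament linker, and Macf1, a linker of actin and microtubules, had ratios of 0.16 and 0.26. Dystonin (Dst), which includes the hemidesmosomal plakin, was the 1 measured on the second type and gave 6991 in the knockout against 4382, a ratio of 0.67 that was 1.32 with spike-ins held equal. Periplakin, at -0.25, thus lay between Dsp and Plec on the first type, and Evpl, at 0.29, below Dst on the second.

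Desmosomal genes and partners of periplakin had 9 measured genes on the first type and 7 genes on the other. By each gene's brightest probe set, 0 were at least 2-fold lower or higher on either type. A dimmer second-type probe set of Dsg1a, looked at after its value was seen, did pass 2-fold. It read 490 in the knockout against 1187, a ratio of -1.28, beside -0.59 for the brightest Dsg1a probe set. The list medians were 0.01 and -0.15. The first was 0.32 under quantile normalization and 0.33 under loess. With spike-ins held equal the medians were 0.70 and 0.50, and 1 gene on each type passed 2-fold, Dsg2 at 1.15 and Pkp2 at 1.24, both named after their values were seen. The desmosome-associated membrane protein Perp read 19883 and 27837, a ratio of -0.49, and corneodesmosin (Cdsn) 13437 and 13351, a ratio of 0.01. On the second type Dsc1 and Pkp3 were the brightest, at -0.53 and -0.15. Kazrin (Kazn), which binds periplakin, read 783 and 780 there, and was looked at after its value was seen.

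Desmocollin 1 (Dsc1), a desmosomal cadherin of the upper epidermis, had the signals most like those of Ivl among 41 genes of the fixed lists above the floor on the first type. It read 2142 and 3851 on the knockout and wildtype arrays, a log2 ratio of -0.85 and a distance of 0.07 from Ivl over the 2 log2 signals, and the next, Pkp3, was 0.68 away. For Ppl the nearest were cystatin B (Cstb), at 9896 and 12010, and Cebpa, with distances of 0.03 and 0.10. For Scel they were Sprr1a, at 0.15, and Plec, at 0.69. For Evpl, among 26 genes on the second type, they were Sp1, at 0.33, and Cst6, at 0.38. A likeness over 2 arrays is weak, and probe sets bind with different strength, so it does not compare amounts of RNA.

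The fixed list of other early precursors also holds Sprr1a, Sprr1b and Sprr3, of the small proline-rich family described above as added later. On the first type 8 of 8 measured genes of this list had ratios below 0. Of all measured probe sets 49.3% were below 0, and of those of at least 1000 on both arrays 51.1%. None of the 8 passed 2-fold. Under loess 7 of the 8 were below 0, and with spike-ins held equal 1 of the 8. Their median of -0.50 lay below the ratios of Ppl and Scel and above that of Ivl. It was -0.39 under quantile normalization and 0.19 with spike-ins held equal. The brightest, annexin A1 (Anxa1), a calcium-dependent membrane-binding protein, read 10202 and 16166, a ratio of -0.66, and the protease inhibitor Cstb had a ratio of -0.28. On the second type 3 were measured, with a median of 0.05 and ratios from -0.79 to 0.88, and 1 of the 3 passed 2-fold with spike-ins held equal. Cst6, a protease inhibitor of skin, and Csta1 were the brightest there, at 0.05 and -0.79. S100a10 was at -0.60 on the first type and 0.88 on a probe set of the second, so its direction did not repeat.

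Late envelope and keratohyalin genes, which follow the scaffold in differentiation, had ratios below 0 for 4 of 5 genes (first type) and 6 of 7 genes (second type), with medians of -0.51 and -0.28. Over all measured probe sets 49.3% and 49.9% were below 0. Loricrin alone passed 2-fold, joined by Rptn at 1.26 with spike-ins held equal. Crct1 and Krtdap, the brightest by mean signal, stood at -0.51 and -0.58, and Lce1f and Lce1h on the second type at -0.28 and -0.27. A dimmer Lce1f probe set, looked at after its value was seen, read 4023 and 3758, a ratio of 0.10. The second-type genes other than Cnfn are Lce1 relatives whose probe sets may share sequence, so they may not be separate readings. Under quantile normalization the medians were 0.09 and 0.10, with 2 of 5 and 1 of 7 below 0. With spike-ins held equal they were 0.18 and 0.37, so the direction of this shift depends on the scaling. Most of these genes are far brighter than Ivl, and quantile normalization moved such bright ratios more than that of Ivl. How the list held up under it is therefore not compared with Ivl.

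Enzymes that cross-link the scaffold were sparsely measured. Tgm3, a transglutaminase of the upper epidermis and hair follicle, read 370 in the knockout against 245 on the first type, a ratio of 0.60. That ratio passed 2-fold with spike-ins held equal, at 1.28, and with suprabasal markers held equal, at 1.08. Its second-type probe set read 435 against 356, a ratio of 0.29. Tgm5 read 433 and 485, a ratio of -0.16. Tgm2, an enzyme of many tissues, was below the floor. Tgm1, the membrane-bound enzyme of the early envelope, has no probe set with that single name on either type and was not analysed here.

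Among transcription factors of keratinocyte differentiation, 18 on the first type and 6 of the second type were measured, with medians of 0.03 and 0.29. Trp63, a master factor of stratified epithelia, was the 1 past 2-fold, at 1906 and 913, a log2 ratio of 1.06 (1.00 under quantile normalization and, just short of 2-fold, under loess). With spike-ins held equal 3 on each type passed 2-fold, all upwards. The brightest on the first type, Cebpa and Klf4, factors of late differentiation, stood at -0.23 and -0.30. On the second, the AP-1 subunit Fosl2 and Sp1 stood at 0.55 and 0.22. AP-1 is a pair of Fos and Jun family proteins known to drive involucrin transcription. With the average signal held equal, its other subunits, looked at after their values were seen, did not move one way. Jund was at -0.63, Fosl1 at -0.29 and Fos at -0.17, while Fosb was at 0.24 and Jun at 0.27. With spike-ins held equal these were all above 0, from 0.06 for Jund to 0.95 for Jun. The first-type probe set of Fosl2 stood at -0.13, with its knockout signal below the floor. The probe sets of Junb differed, the brighter at 0.09 and the other at -0.29.

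The start regions of the members are shown for the AP-1 motif, since AP-1 subunits were measured beside them. RefSeq's promoter table (GRCm38.p6) held 2 of the 4 members, Ivl and Scel. The motif searched was TGANTCA, which reads the same on both strands, in the 250 bases before the listed start. Both windows held 1 match, TGACTCA. Of 32544 such windows in the table, 2191 (6.73%) held at least 1 match to the motif. The match lies 116 bases before the listed start in Ivl and 36 in Scel. The bases of Ivl that precede every annotated start (chr3:92573791-92573985, minus strand) and 30 bases around the Scel match (chr14:103513294-103513323, plus strand, inside the annotated span of the gene) are given 5′ to 3′ with the match in capitals.
Ivl: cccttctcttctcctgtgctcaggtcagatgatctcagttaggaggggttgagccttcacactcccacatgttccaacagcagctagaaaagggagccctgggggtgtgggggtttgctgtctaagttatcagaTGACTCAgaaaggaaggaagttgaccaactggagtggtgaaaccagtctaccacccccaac
Scel: tcctccctgcgTGACTCAgtgttgagagag
A TATA box, TATAAA on either strand, was found 29 bases before the listed start of Ivl and not in the Scel window. This TATAAA match lies inside the annotated span of Ivl and outside the bases printed above. The TATA motif is held by 12.3% of the windows. A C/EBP motif, TTGCNNAA on either strand, which 9.58% of the windows hold, had no match in either. A match is a run of letters, and no factor's binding was measured here.

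Ivl lies on chromosome 3 in the epidermal differentiation complex, the gene cluster that also holds loricrin, with 16 protein-coding genes between them in the reference gene order. Of the 20 protein-coding genes nearest to Ivl, 14 had a probe set and 11 were measured, counted over both array types. Their log2 ratios ran from -0.68 to 1.42, with 6 of 11 below 0, 3 past 2-fold upwards and 0 past 2-fold downwards. The 3 were Sprr2e, Sprr2h and Sprr2i, small proline-rich envelope precursors, at 1.18, 1.25 and 1.42, and their probe sets may share sequence with relatives. All 3 belong to the first type, where 1.37% of measured probe sets passed 2-fold upwards and 1.91% downwards. The second-type shares were 2.26% and 2.80%. With spike-ins held equal the 6 below 0 rose above it, from 0.01 for Sprr3 to 0.52 for Sprr1a. That scaling adds 0.69 to first-type ratios above the floor, and Sprr2d and Sprr2k stood at 0.92 and 0.79 before it. Both counts therefore depend on the scaling. Nearer to Ivl, Sprr1a, Sprr3 and Sprr1b stood at -0.16, -0.68 and -0.35 on one side. On the other side Lce1a1, read on the second type, stood at -0.32. Ivl, at -0.91, was lower than each measured neighbour read on its own array type. Lce1a1, Lce1a2 and Lce1f were read on the second type, scaled separately, and are not ranked against Ivl. Around Ppl, Scel and Evpl, which lie outside such a cluster, 0 of the measured neighbours passed 2-fold with the average signal held equal. Their medians were then 0.15, 0.13 and 0.14.

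Markers of the tissue layers were set beside the scaffold genes, since whole skin mixes epidermis and dermis and fewer cells of a type cannot be told apart from less RNA per cell. Suprabasal markers, from the layers that make the scaffold, had 4 of 6 ratios below 0 on the first type with a median of -0.49, which was 0.04 under quantile normalization and 0.20 with spike-ins held equal. On the second 5 of 6 were below 0, with a median of -0.29 that was 0.36 with spike-ins held equal. Their summed knockout signal was 73997 against 106478 in the wildtype for the first type, and 125097 against 139148 for the second. Among the keratins of that list Krt10 stood at -0.47 and Krt1 at -0.51, but Krt77 at 0.21 and Krt2 at 0.25. Under quantile normalization Krt10 and Krt1 were at 0.05 and 0.03. Of the basal markers 4 were measured on the first type and 3 passed 2-fold upwards, Itga6, Col17a1 and Trp63, beside 1.37% of all measured probe sets. The other, Itgb4, stood at 0.04, and under loess 2 passed. The summed signal of the basal markers was 4745 against 2279 over the 7 present. The defining basal keratins Krt5 and Krt14 were below the floor there on both arrays. On the second type 2 were measured, Krt15 and Dst, at 0.25 and 0.67, with sums of 33573 and 26686. Dermal markers were at least 2-fold lower for 12 of 18 measured on the first type, beside 1.91% of all measured probe sets. Their summed signal was 6965 against 15733 over the 19 present. The 2 brightest, Dcn and Col1a2, did not pass, at -0.05 and 0.01, but a dimmer Col1a2 probe set stood at -3.66. On the second type 1 of 2 was at least 2-fold lower, beside 2.80% of all, with 203 against 1061 over the 3 present. All 3 measured erythroid markers were at least 2-fold lower on the first type, with sums of 5526 and 21749 over the 5 present. Of the muscle markers 3 were measured and 0 passed 2-fold. These 3 summed to 281 in the knockout and 425 in the wildtype, and all 10 present, mostly below the floor, to 457 and 539. No marker was listed at 0. The part of these shifts in the scaffold genes' ratios was not tested.

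**Figure D4:**
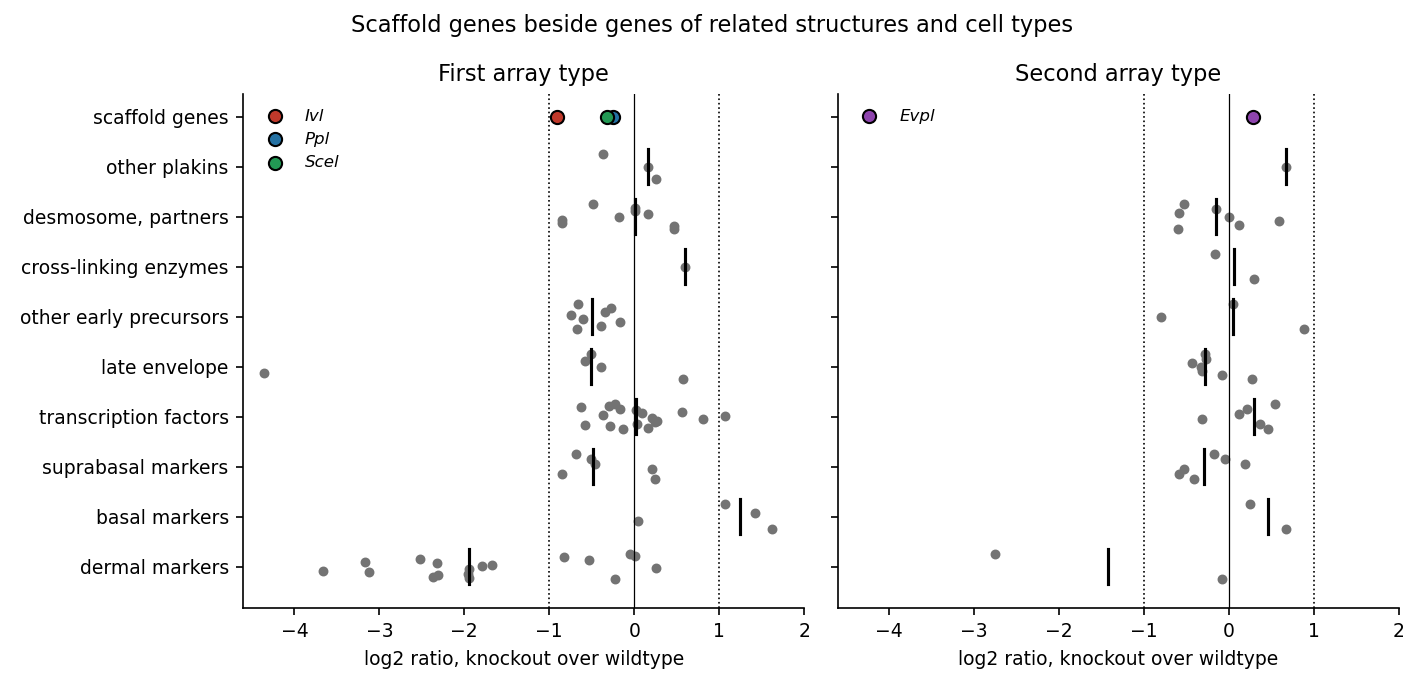
Log2 ratio of knockout over wildtype of the scaffold genes (top line, coloured) and of measured genes of related structures and marker lists (grey points, with the list median as a bar), with 2-fold differences dotted. Ivl lies left of every early precursor and suprabasal marker on the first type, Ppl and Scel lie between the desmosome and early precursor medians, and the dermal markers reach far to the left.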

How the data were processed

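Total RNA of whole skin was labelled with biotin and read on 2 types of Affymetrix array, per the labels. The authors deposited a linear intensity for each probe set of each array, and the submitters' processing notes name MAS5. Its version, scaling target and detection calls were not stated. The deposited columns had 2% trimmed means of 500.2 to 500.4 and medians of 135 to 210, and no column was left unmatched.

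The pair of arrays of a type was set to an equal 2% trimmed mean, signals below the mean of the pair's 40th percentiles were set to that floor, and the log2 ratio was taken. Control probe sets, 66 per type, were then left out. Names came from probe sets with 1 gene, with symbols updated by gene identifier. A gene of a list took its brightest probe set per type. Calls used a rule of size of 2-fold, since no test is possible with 1 array per genotype and type. A limma fit planned for members on both types was not run, as none is on both.

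Members, lists, markers and alternatives were chosen with earlier results of these data known. The rule for named genes took loricrin, all members, list genes past 2-fold, the 2 brightest of each list and the 2 nearest to each member; other genes are named as picked afterwards, or given as neighbours, markers or other subunits. The steps were tested on simulated data with Python 3.11.15, numpy 2.4.6, scipy 1.17.1 and pandas 2.3.3.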

Additional observations from a re-analysis of the deposited data

How the results depend on the processing

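None of the 4 members passed 2-fold under any of the alternatives for scaling and floor. With a 1.5-fold rule 1 member on the first type, Ivl, was counted as lower, and with a 3-fold rule 0. The median of the 3 first-type members, -0.32, was 0.37 with spike-ins held equal and 0.17 with suprabasal markers held equal, the latter chosen after seeing the data. Evpl, the 1 member of the second type, was 0.94 with spike-ins held equal. These scalings shift every ratio of a type by a constant. Under the other alternatives the medians of the members moved by less than the central spread of ratios on their type, 0.36 and 0.41. This does not hold for other gene lists: quantile normalization took the first-type late envelope median from -0.51 to 0.09 and the suprabasal one from -0.49 to 0.04. No paired analysis was possible because each array type holds 1 array per genotype, and leaving out an array leaves no ratio. Differences as small as those of Ppl, Scel and Evpl lie close to the SD of 0.24 that other bright genes showed between array types.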
